A study of Mus musculus with 8 samples.

Results

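The interval from day 2 to day 4 of doxycycline (Dox) was examined in AML410, a mouse acute myeloid leukaemia (AML), by setting the 2 libraries labelled day 4 Dox against the 2 labelled day 2 Dox, which are 4 of the 8 libraries of the series. The members were chosen by sample title, and the interval was singled out because Spi1 rises most steeply in it on a log scale. AML410 has a monosomal karyotype, lacks p53 (p53-/-) and expresses shPU.1, a hairpin that silences Spi1, the gene for PU.1. This hairpin is linked to green fluorescent protein (GFP), and Dox switches both off, so that endogenous PU.1 can return.

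The day 2 libraries came from cells sorted as GFPhigh-mid after 2 days of Dox, and the day 4 libraries from cells sorted as GFPmid after 4 days. The other groups were untreated cells sorted as GFPhigh and day 6 cells sorted as GFPlow, with 2 libraries each. All came from the bone marrow of leukaemic recipients, all carry the C57BL/6 strain label, and all share the p53-/- shPU.1 genotype of AML410, so that they represent 1 leukaemia. Time on Dox and GFP gate changed together, so their effects cannot be told apart. The titles call the libraries technical replicates, whereas the series design speaks of duplicate mice, so the error behind each p-value is that between a pair of libraries and may be technical alone. The study restored PU.1 step by step, and this interval asks what changes while PU.1 messenger RNA climbs with drug present on both sides.

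PU.1 is an ETS family transcription factor that binds purine-rich sites and is needed for monocytes, macrophages, neutrophils and B cells. Low PU.1 holds progenitors immature, whereas high PU.1 favours the monocyte and macrophage programme and works with C/EBP and interferon regulatory factors on myeloid genes. Its known targets include growth factor receptors, Fc receptors, integrin chains, lysosomal proteases and the oxidase of phagocytes.

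Library totals at day 2 and day 4 ran from 9262047 to 11213292 counts. Log2 CPM (counts per 1e6 counts) of the libraries correlated across genes at 0.981 within day 2, 0.992 within day 4 and 0.93 to 0.949 between the days, with all pairs sharing the same genes. Day 2 replicate 1 stood apart. Gene ID 100861531, which RefSeq gives no symbol in the table used, took 13.3% of its counts, against 0.0883 to 0.149% in the other 7 libraries. Lars2 took 1.48%, against 0.0905 to 0.214%. Gene IDs 19791 (1.13%, against 0.00658 to 0.0119%) and 100628626 (0.782%, against 0.0514 to 0.138%), also without a symbol, were raised there too. What the IDs without a symbol are was not looked up. Levels below are CPM scaled by TMM, a normalisation that sets aside genes with extreme changes. In bulk RNA, more cells of a type and more RNA per cell cannot be told apart.

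Spi1 (gene 20375, chromosome 2, 91082374 to 91115759, mm10) read 14.8 and 15.6 CPM at day 2 and 94.05 and 103 CPM at day 4. Both day 4 libraries lay far above both day 2 libraries, with a log2 difference of 2.69 (SE 0.14), or 6.46-fold. The step before, from untreated cells at 8.34 and 12.9 CPM, was 0.52, and the step after, to 217 and 229 CPM at day 6, was 1.18. The interval thus held 61.3% of the whole log2 rise. On the linear scale the order differed, with mean rises of 4.56 CPM before day 2, 83.2 CPM from day 2 to day 4 and 124 CPM from day 4 to day 6. Since the interval was picked for Spi1, these values are a description and no test is given.

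**Figure D1:**
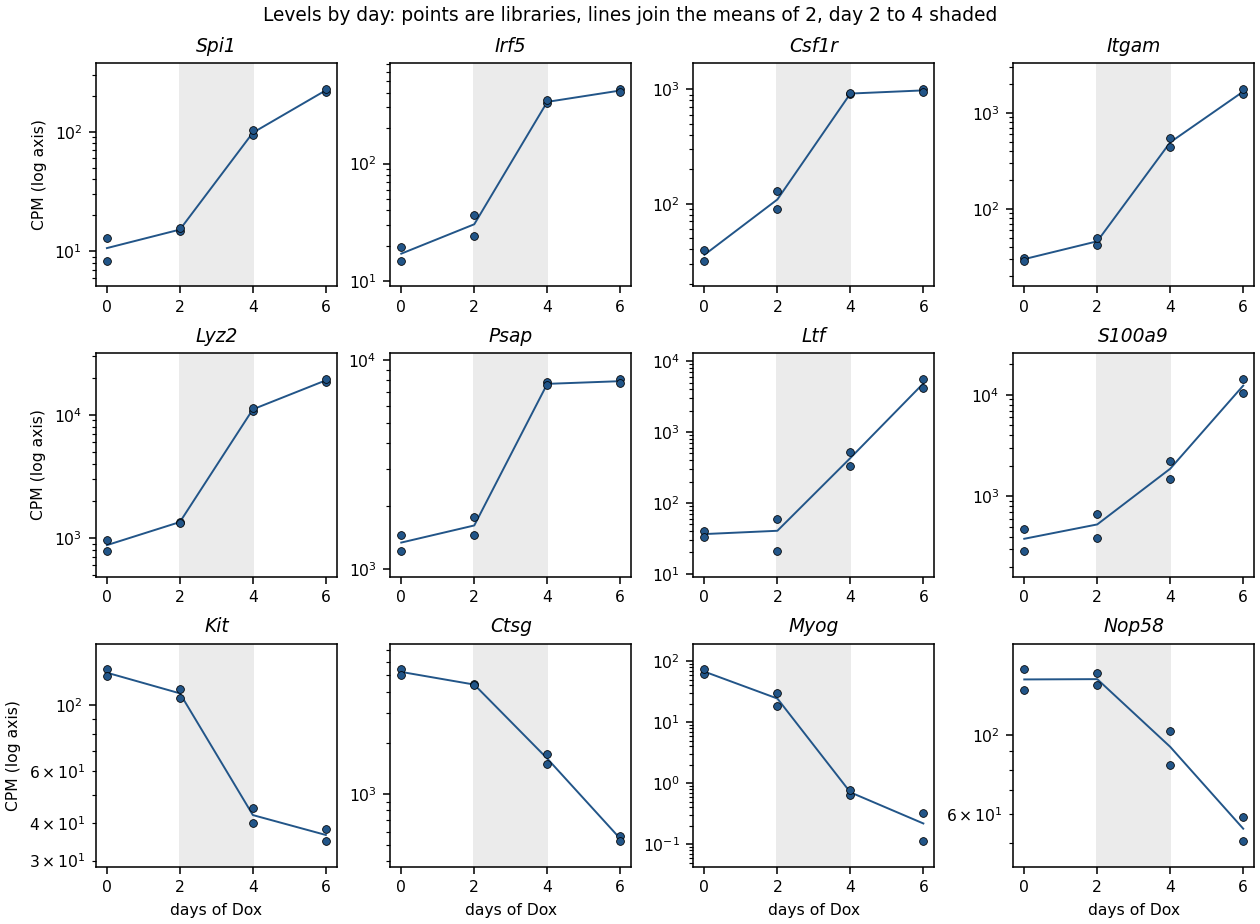
CPM (log axis) against days of Dox for 12 genes; points are single libraries, lines join the means of 2 libraries, and the shaded band is day 2 to day 4. Spi1, Irf5, Csf1r, Itgam, Lyz2, Psap, Ltf and S100a9 climb in the band, and Kit, Ctsg, Myog and Nop58 fall in it. Spi1, Ltf and S100a9 are among those that climb again after it.

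Between day 2 and day 4, myeloid surface receptors, lysosomal genes and interferon response genes rose, while progenitor genes, several primary granule genes, ribosome biogenesis genes and a set of muscle genes fell. Of 12330 genes tested, 4640 (37.6%) differed in the edgeR quasi-likelihood test with Benjamini-Hochberg adjustment at a threshold of 0.05. Of these, 2681 (21.7% of genes tested) were higher and 1959 (15.9%) lower at day 4. By over 2-fold, 890 genes (7.22%) rose and 570 (4.62%) fell. The day 2 and day 4 libraries did not overlap in 35.4% of genes with higher and 35.1% with lower levels at day 4. The median log2 fold change over all genes was −0.01. Without day 4 replicate 2 the lower count was 1173. Scaled by total counts, 1870 genes were higher and 1921 lower, and the median of all genes was −0.09.

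**Figure D2:**
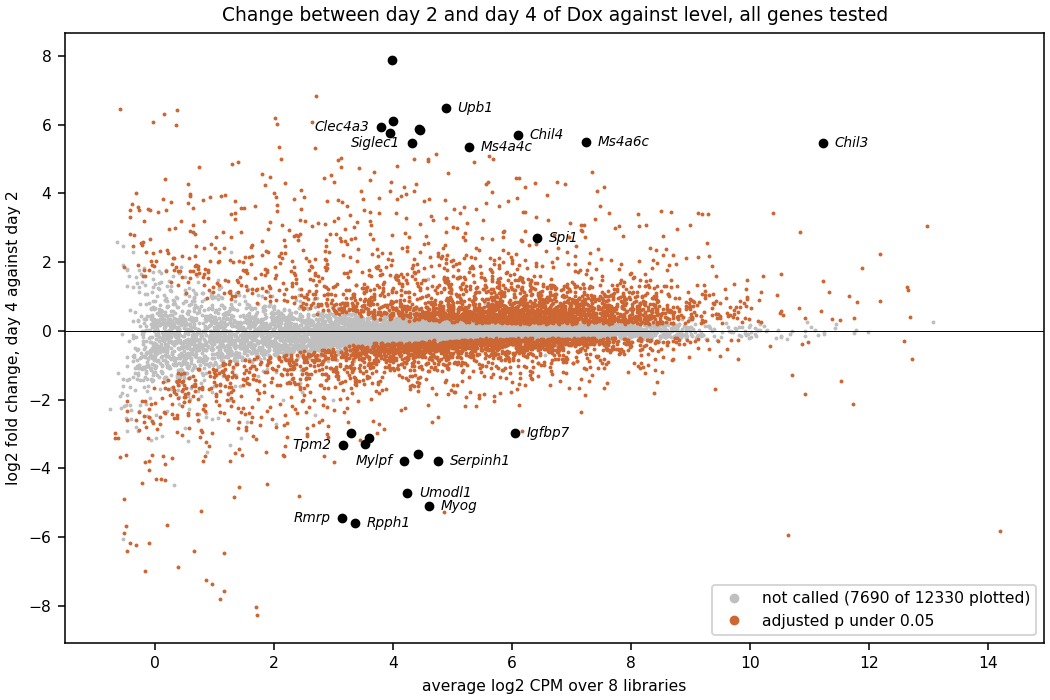
Log2 fold change of day 4 against day 2 (y axis) against average log2 CPM over 8 libraries (x axis) for the 12330 genes tested; orange points passed the test and grey points (7690) did not. Black points are Spi1 and the 12 leading genes in each direction, many of them labelled; Rpph1 lies lowest of these, at −5.58. The unlabelled orange point at the far right is gene ID 100861531, which is high in day 2 replicate 1.

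The leading rising genes, ranked by fold change among well expressed genes, rose from low levels in most cases. They included Upb1, Galnt9, Clec4a3, Hpgd, Ptpro, Sh2d1b1, Chil4, Ms4a6c, Siglec1, Chil3 and Ms4a4c. Upb1, an enzyme of pyrimidine breakdown, read 0.346 and 0.628 CPM at day 2 and 43.9 and 47.5 CPM at day 4 (log2 fold change 6.47, SE 0.26, adjusted p = 1.87e-08). Hpgd, which inactivates prostaglandins, read 0.461 and 0.449 CPM at day 2 and 29.2 and 25.6 CPM at day 4 (log2 fold change 5.88, SE 0.22, adjusted p = 1.32e-08). Apart from Ms4a6c and Chil3, each of those named was at 1.61 CPM or less in both day 2 libraries. The rule that chose them asked for groups that do not overlap.

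Ms4a6c, a membrane protein gene of monocytes, read 3.57 and 5.65 CPM at day 2 and 201 and 228 CPM at day 4 (log2 fold change 5.504, SE 0.15, adjusted p = 1.43e-09). Chil3, a secreted chitinase-like protein of myeloid cells, read 57.8 and 29.3 CPM at day 2 and 2119.6 and 1719 CPM at day 4 (log2 fold change 5.47, SE 0.27, adjusted p = 6.19e-08). Its day 2 libraries differed from each other, and both lay far below day 4. Galnt9, which starts sugar chains on proteins, had a log2 fold change of 6.098, Ptpro, a receptor phosphatase gene, 5.84, and Sh2d1b1, a SLAM receptor adaptor, 5.75. Siglec1, a sialic acid-binding receptor of macrophages, had 5.47, Clec4a3 5.92, Chil4 5.69 and Ms4a4c 5.33. Chil3 with Chil4, the Ms4a genes and the Clec4a genes have close copies, and reads may be shared between them.

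Genes known as PU.1 targets rose almost together. Lists below share members with this one and with each other, among them Csf1r, Pirb and Itgam, so their counts are not independent. Of 25 tested, 22 passed upward, 19 of them by over 2-fold, and none passed downward. The median log2 fold change was 1.45, against −0.01 over all genes. Beside this and every list below stand the shares over all genes, 21.7% higher and 15.9% lower (7.22% and 4.62% by over 2-fold). Pirb, an inhibitory receptor that recruits phosphatases, read 2.77 and 3.95 CPM at day 2 and 65.6 and 73.7 CPM at day 4 (log2 fold change 4.34, SE 0.14, adjusted p = 6.33e-09). Its day 2 and day 4 libraries did not overlap. Btk (−0.05), Tlr4 (0.099) and Il1b (1.101) were the 3 that did not pass. In 19 of the 25 the step from day 2 to day 4 was larger than the step before it (background 8.88% of genes tested), and in 17 larger than the step after it (background 8.38%), by tests of the difference between steps.

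The DNA around the start of such genes (250 bases before it and 50 after) was read from RefSeq promoter sequences (GRCm38.p6, which is mm10). It was searched on both strands for GAGGAAGT and its reverse complement ACTTCCTC, a form of the ETS core that PU.1 prefers. A match counted below could thus lie before or after the start. No other motif was searched. Of all 32851 promoters of 300 bases in the table, 3.20% held it, as did 4.02% of the 9555 tested genes with a promoter there. Among genes higher at day 4 by over 2-fold it was in 69 of 689 (10.01%), and among those lower by over 2-fold in 11 of 418 (2.63%). None of the 10 leading rising genes with a promoter and none of the 9 leading falling genes held it. A match is a description of the letters and no sign of binding. Of 132 distinct members of the myeloid lists that rose by over 2-fold, 102 had a promoter and 15 held the motif. The 4 promoters printed here, chosen after their values were seen, are a receptor of each of 3 kinds and a granule enzyme, and each line is the 250 bases before the start, with the motif in capitals.
Pirb (chr7:3720383-3720632, minus strand): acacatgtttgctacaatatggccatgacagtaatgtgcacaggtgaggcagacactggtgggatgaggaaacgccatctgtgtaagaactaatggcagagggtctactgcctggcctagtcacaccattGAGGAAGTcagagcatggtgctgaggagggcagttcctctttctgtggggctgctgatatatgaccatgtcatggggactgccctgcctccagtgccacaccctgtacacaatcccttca
Tlr1 (chr5:64933559-64933808, minus strand, 1 of 2 starts): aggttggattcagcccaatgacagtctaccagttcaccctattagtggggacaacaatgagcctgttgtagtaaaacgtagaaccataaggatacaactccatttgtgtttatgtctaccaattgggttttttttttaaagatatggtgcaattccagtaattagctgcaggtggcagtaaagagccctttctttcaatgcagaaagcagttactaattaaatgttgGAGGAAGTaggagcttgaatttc
Mmp8 (chr9:7558179-7558428, plus strand): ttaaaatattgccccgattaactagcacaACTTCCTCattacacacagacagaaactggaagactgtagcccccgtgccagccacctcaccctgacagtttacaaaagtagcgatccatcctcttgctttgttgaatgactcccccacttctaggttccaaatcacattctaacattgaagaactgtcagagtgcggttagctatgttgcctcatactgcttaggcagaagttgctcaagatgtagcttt
Fcgr4 (chr1:171018676-171018925, plus strand): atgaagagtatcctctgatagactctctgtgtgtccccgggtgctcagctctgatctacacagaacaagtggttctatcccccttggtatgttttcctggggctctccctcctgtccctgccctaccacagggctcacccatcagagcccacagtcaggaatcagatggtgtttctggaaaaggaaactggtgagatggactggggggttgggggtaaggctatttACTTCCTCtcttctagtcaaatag
The motif began 120 bases before the start in Pirb and 23 in Tlr1, on the gene's strand, and 221 bases before it in Mmp8 and 24 in Fcgr4, on the opposite strand. Their levels rose with log2 fold changes of 4.34, 3.197, 2.76 and 2.22.

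Most myeloid transcription factors that passed rose. Of 27 tested, 18 passed upward (21.7% over all genes) and 5 downward, with a median of 0.69. The falling count is near the 15.9% over all genes, so no downward shift of the list is read from it. Spi1, for which the interval was picked, is included in the upward count and the median and adds no support. Irf5, an interferon regulatory factor of macrophages, read 24.2 and 36.9 CPM at day 2 and 324 and 344 CPM at day 4 (log2 fold change 3.43, SE 0.16, adjusted p = 3.7e-08). Klf4, a zinc finger factor of monocytes, read 30.4 and 43.4 CPM at day 2 and 239.7 and 251 CPM at day 4 (log2 fold change 2.72, SE 0.13, adjusted p = 4.7e-08). Both rose in both libraries by more than the spread, and both steps were larger than those that followed, by 3.11 (SE 0.23, adjusted p = 1.34e-05) for Irf5 and 3.02 (SE 0.199, adjusted p = 5.23e-06) for Klf4.

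Maf (2.08), Klf2 (1.63), Cebpb (1.01), Jun (1.003) and Id2 (0.97) also rose. Irf8, which steers progenitors to monocytes, had 1147 and 1309 CPM at day 2 and 1323 and 1194 CPM at day 4 and a log2 fold change of 0.04 that did not pass. Among the 5 that fell, Gfi1, a repressor of the granulocyte lineage, read 178 and 147 CPM at day 2 and 73.98 and 94.1 CPM at day 4 (log2 fold change −0.95, SE 0.13, adjusted p = 0.000115), and Egr1 (−1.17), Etv6 (−0.52), Cebpe (−0.46) and Cebpa (−0.42) also fell. Cebpe lost its call without day 2 replicate 1 or day 4 replicate 1.

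Receptors for growth factors and cytokines rose in 13 of 18 cases and fell in 1, with a median of 1.04. Csf1r, whose protein binds the macrophage growth factor CSF1, read 89.4 and 128 CPM at day 2 and 917 and 919.5 CPM at day 4 (log2 fold change 3.07, SE 0.15, adjusted p = 6.22e-08). Its day 4 libraries nearly coincided, and its next step was 0.09, smaller by 2.98 (SE 0.23, adjusted p = 1.75e-05). Il10ra, the interleukin 10 receptor chain, read 1.85 and 2.78 CPM at day 2 and 73.1 and 80.5 CPM at day 4 (log2 fold change 5.01, SE 0.17, adjusted p = 6.33e-09). Il13ra1 (2.31), Il6ra (2.29), Csf2ra (1.48) and Csf3r (1.25), the receptors for interleukins 13 and 6 and for colony-stimulating factors, rose too. Kit, the stem cell factor receptor of progenitors, was the member that fell: it read 114 and 106 CPM at day 2 and 40.1 and 45.3 CPM at day 4 (log2 fold change −1.36, SE 0.09, adjusted p = 4.51e-07). Flt3 (−0.21) and Ifngr1 (−0.28) did not pass.

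Fc receptors and their relatives rose in 10 of 11 cases with none falling and a median of 2.22. Fcgr1, the high-affinity receptor for immunoglobulin G, read 3.92 and 7.54 CPM at day 2 and 63.6 and 82.3 CPM at day 4 (log2 fold change 3.62, SE 0.21, adjusted p = 2.13e-07). Tyrobp, the signalling adaptor known as DAP12, had a log2 fold change of 1.598, and Fcer1g, the common gamma chain, 0.59. Fcgr3 (1.41) and Fcgr4 (2.22) rose, while the inhibitory Fcgr2b (0.19) did not pass. Pira2 had 2 counts at day 2 and 161 at day 4, a ratio of 74.99 (95% exact counting interval 20.4 to 625). Lilrb4a (3.87) and Lilr4b (3.65) rose from a few counts. The Pira and Pirb genes and the Lilr genes are near copies of each other, so their reads may be divided wrongly.

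Inhibitory receptors and phosphatases gave 12 of 15 up and 1 down, with a median of 1.08. Siglece, an inhibitory sialic acid receptor, read 0.461 and 0.359 CPM at day 2 and 4.72 and 3.901 CPM at day 4 (log2 fold change 3.38, SE 0.37, adjusted p = 2.82e-05). Cd300lf (2.69), Cd300a (2.42) and Cd33 (2.14) rose by more than 4-fold each, and Ptpn6, the phosphatase SHP-1 that such receptors recruit, by 0.71 on the log2 scale. Cd72, a B cell receptor of this list, was lower at day 4 but rested on day 2 replicate 1 (11.8 CPM, against 1.97 in replicate 2).

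Integrins of leukocytes gave 9 of 12 up and none down. Itgam, the CD11b chain of a phagocytic integrin, read 42.3 and 49.3 CPM at day 2 and 442 and 548 CPM at day 4 (log2 fold change 3.43, SE 0.13, adjusted p = 1.42e-08). Itgb7 (2.19), Itgal (1.47) and Itgb2 (1.21), other chains of leukocyte integrins, rose, whereas Itgb1 (0.18), Itga5 (0.19) and Itgav (0.23), which many cell types carry, did not pass.

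Cytoplasmic kinases and their partners gave 11 of 15 up and 1 down. Fgr, a SRC kinase of phagocytes, read 3.11 and 2.06 CPM at day 2 and 18.1 and 23.4 CPM at day 4 (log2 fold change 3.02, SE 0.23, adjusted p = 1.75e-06). Fes (1.305), Lyn (1.25) and Syk (0.64) rose by less. Lck, the T cell member, had 22 counts at day 2 and 1 at day 4, a ratio of 0.0423 (95% exact counting interval 0.00103 to 0.262). Day 2 replicate 1 held nearly all of them (2.31 CPM, against 0.180 in replicate 2), and the call was lost without that library or either day 4 library.

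C-type lectin receptors had the highest list median, 3.28, with 10 of 12 up, all by over 2-fold, and 1 down. Clec4a2, an inhibitory lectin receptor, read 8.303 and 9.96 CPM at day 2 and 214 and 237 CPM at day 4 (log2 fold change 4.61, SE 0.12, adjusted p = 1.43e-09). Clec4b1 read 1.27 and 1.17 CPM at day 2 and 42.9 and 35.01 CPM at day 4 (log2 fold change 4.99, SE 0.21, adjusted p = 2.34e-08). Neither overlapped between the days. Clec7a, the beta-glucan receptor dectin-1, had 2.98, Clec4n, a fungal mannan receptor, 3.57, and Clec4a1 4.91. Clec4d (0.19) did not pass, and Clec2d (−0.66) fell with a call that was lost when any 1 of 5 libraries was left out.

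Pattern recognition genes gave 16 of 18 up and none down, with a median of 1.71. Cd14, the co-receptor for lipopolysaccharide, read 3.23 and 3.41 CPM at day 2 and 34.7 and 32.7 CPM at day 4 (log2 fold change 3.33, SE 0.18, adjusted p = 1.49e-07). Tlr13, a sensor of bacterial ribosomal RNA, read 21.6 and 26.8 CPM at day 2 and 185 and 227 CPM at day 4 (log2 fold change 3.08, SE 0.14, adjusted p = 3.27e-08). Tlr8 (4.34), Tlr1 (3.197), Tlr9 (2.89) and Tlr2 (2.61) rose with the trafficking factor Unc93b1 (2.19). Tlr4, which pairs with Cd14, had 0.099 and Irak3, a brake on this signalling, −0.15; neither passed.

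Receptors for chemokines and other attractants gave 13 of 18 up and 1 down, with a median of 1.48. Ccr2, which draws monocytes into tissue, read 70.9 and 143 CPM at day 2 and 1075 and 1197 CPM at day 4 (log2 fold change 3.402, SE 0.26, adjusted p = 1.71e-06). Both day 2 libraries were far below both day 4 libraries. Gpr35 (4.58), Ccr1 (2.49), Fpr1 (2.82) and Fpr2 (2.69), of which the Fpr genes encode receptors for formylated bacterial peptides, rose. Cxcr4, which holds cells in marrow, rose by 0.24 and Cxcr2, the neutrophil receptor, by 0.62. Cmklr1 fell (−0.74), a call lost when any 1 of the 4 day 2 and day 4 libraries was left out.

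Inflammasome and interleukin 1 genes gave 11 of 15 up and 1 down. Nlrc4, an inflammasome gene, read 0.692 and 1.71 CPM at day 2 and 12.2 and 12.5 CPM at day 4 (log2 fold change 3.29, SE 0.27, adjusted p = 3e-06). Nlrp3, a sensor of cell damage, had 2.06. Il1rn, the interleukin 1 receptor antagonist, had 1.29 and Il18 1.76, the last not called without day 4 replicate 2. Il1b (1.101) and Casp4 (0.12) did not pass, and Il1rap, a co-receptor, fell (−0.39). Of 10 complement genes 7 rose and none fell. Cfp, the stabiliser properdin, read 12.6 and 21.1 CPM at day 2 and 293 and 326 CPM at day 4 (log2 fold change 4.17, SE 0.17, adjusted p = 2.34e-08), and C3ar1 (2.17) lost its call without day 4 replicate 1. C1qa (1.11) and C1qc (1.27), subunits of C1q, did not pass.

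Monocyte and macrophage genes gave 21 of 23 up, 18 of them by over 2-fold, and none down, with a median of 2.89. Csf1r, Msr1, Cd14, Cd68 and Adgre1 of this list were also counted among the PU.1 targets. Clec4a1 read 0.923 and 2.603 CPM at day 2 and 50.9 and 61.4 CPM at day 4 (log2 fold change 4.91, SE 0.23, adjusted p = 4.17e-08). Ms4a6d read 0 and 0.808 CPM at day 2 and 12.98 and 12.2 CPM at day 4 (log2 fold change 4.77, SE 0.49, adjusted p = 1.54e-05). F13a1, a coagulation factor chain of monocytes, had 2.95, Mpeg1, a pore-forming protein of macrophages, 2.89, and Trem2, a lipid receptor of macrophages, 2.89. Msr1, a scavenger receptor, had 3 counts at day 2 and 47 at day 4, a ratio of 14.6 (95% exact counting interval 4.698 to 73.3), and Ms4a7 had 1 count at day 2 and 15 at day 4, a ratio of 13.97 (95% exact counting interval 2.15 to 588). The monocyte marker Ly6c2 rose least of those that passed (0.41), and Cd163 (−0.33) and Apoe (−0.23) did not pass. In 16 of the 23 the step was larger than the one from day 4 to day 6, whose list median was 0.40.

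Lysosomal genes gave 22 of 27 up and 3 down, with a median of 0.91. Psap, the precursor of activators of lipid breakdown, read 1460.3 and 1779 CPM at day 2 and 7820.1 and 7569 CPM at day 4 (log2 fold change 2.25, SE 0.13, adjusted p = 1.55e-07). Ctss, a cathepsin of antigen processing, read 38.3 and 59.1 CPM at day 2 and 526 and 583 CPM at day 4 (log2 fold change 3.497, SE 0.17, adjusted p = 4.58e-08). Lgmn, the legumain protease, had 2.53, Ctsb 1.58, Grn 1.35, Lamp1 0.91 and the proton pump subunit Atp6v0d1 0.77. In 18 of 27 the step exceeded the next one, and the list median from day 4 to day 6 was 0.06. Cd63 (−0.51), Gla (−0.49) and Glb1 (−0.28), a membrane protein and the galactosidases, fell. The Glb1 call was lost without day 2 replicate 1 or day 4 replicate 2.

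The listed genes of the NADPH oxidase, which makes superoxide in phagocytes, all changed: 7 of 8 rose and 1, which is not an oxidase subunit, fell. Cybb, the catalytic subunit, read 1031 and 1058 CPM at day 2 and 2782 and 2939 CPM at day 4 (log2 fold change 1.45, SE 0.11, adjusted p = 1.41e-06). Ncf4 (0.96), Cyba (0.85) and Ncf1 (0.54), its partners, rose by less, and Hvcn1, the proton channel, fell (−0.56).

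MHC class II genes gave 3 of 6 up and none down. Cd74, the invariant chain, read 19.95 and 8.62 CPM at day 2 and 132 and 129 CPM at day 4 (log2 fold change 3.24, SE 0.24, adjusted p = 1.08e-06), and H2-DMa, which helps load peptides, read 3.81 and 5.48 CPM at day 2 and 40.5 and 47.7 CPM at day 4 (log2 fold change 3.219, SE 0.17, adjusted p = 1.28e-07). H2-Ab1 (−0.705), H2-Aa (0.37) and H2-Eb1 (1.02), the classical chains, did not pass. B cell genes, which can travel with class II genes, summed to 179 and 28.4 CPM at day 2 and 32.3 and 36.7 CPM at day 4. MHC class I and immunoproteasome genes gave 8 of 15 up (21.7% over all genes) and 1 down (15.9% over all genes), with a median of 0.25. The list gave 3 up without day 4 replicate 2, 4 and 5 up when the first or the second day 2 library was left out, and 4 when scaled by total counts. Tapbp, the peptide loading factor tapasin, rose by 0.95, and H2-Q4 fell by 0.38 on the log2 scale.

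Interferon response genes gave 25 of 27 up and none down, with a median of 0.98. Ifit3, an antiviral RNA-binding protein, read 1.499 and 1.88 CPM at day 2 and 17.5 and 30.7 CPM at day 4 (log2 fold change 3.8004, SE 0.305, adjusted p = 2.29e-06). Irf7, the amplifier of interferon production, read 43.01 and 36.7 CPM at day 2 and 117 and 198 CPM at day 4 (log2 fold change 1.99, SE 0.195, adjusted p = 1.12e-05). In both, and in Rsad2 (7.38 and 7.54 CPM at day 2 and 37.8 and 61.9 CPM at day 4) and Oas3 (44.2 and 35.6 CPM at day 2 and 131 and 210.5 CPM at day 4), day 4 replicate 2 stood above replicate 1 while both stood above day 2. Stat2 (0.81) and Irf9 (0.696), parts of the factor that interferon activates, rose by less. Without day 4 replicate 2 the list gave 21 up with a median of 0.70, and without day 4 replicate 1 it gave 25 up with a median of 1.39. The step exceeded the next one in 3 members (background 8.38%), in 9 without day 4 replicate 1, in 1 without day 2 replicate 1 or day 6 replicate 2, and in none without day 4 replicate 2, when 4 fell short of it. The next step had a list median of 1.14.

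The primary granule list and the secondary and tertiary granule list had medians of opposite sign, though members of each went against it or did not pass. The secondary and tertiary list also holds the oxidase genes Cybb and Cyba and the transcription factor gene Cebpe. Of 10 primary granule genes 6 fell (15.9% over all genes) and 2 rose (21.7% over all genes), with a median of −0.49. Ctsg, the protease cathepsin G, read 4455 and 4354 CPM at day 2 and 1719.5 and 1509.5 CPM at day 4 (log2 fold change −1.45, SE 0.101, adjusted p = 7.19e-07). Srgn, the proteoglycan that packs granule proteases, read 2777 and 2485 CPM at day 2 and 1153 and 999 CPM at day 4 (log2 fold change −1.29, SE 0.11, adjusted p = 2.86e-06), and Cst7 (−1.01) and the elastase gene Elane (−0.83) fell by less. Mpo, which encodes myeloperoxidase, had −0.21 and Prtn3 −0.11, neither called. Ctsc, which activates the granule proteases and is also lysosomal, rose (294 and 303 CPM at day 2 and 1142 and 1052 CPM at day 4; log2 fold change 1.88, SE 0.09, adjusted p = 4.7e-08). Prss57 had 0.43, and its call was lost under most alternatives. In 7 of the 10 the step was more negative than the one before it, whose median was 0.36 (background 5.35% of genes tested).

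Secondary and tertiary granule genes rose instead, with 13 of 18 up, 3 down (1 without day 2 replicate 1 or day 4 replicate 1) and a median of 1.20. Lyz2, the lysozyme of phagocytes, read 1362 and 1335 CPM at day 2 and 10831 and 11336 CPM at day 4 (log2 fold change 3.04, SE 0.12, adjusted p = 1.86e-08). Ltf, which encodes lactoferrin, read 59.9 and 21.1 CPM at day 2 and 336 and 525 CPM at day 4 (log2 fold change 3.43, SE 0.38, adjusted p = 2.99e-05). The gelatinase Mmp9 read 12.2 and 2.51 CPM at day 2 and 39.2 and 66.8 CPM at day 4 (log2 fold change 2.93, SE 0.46, adjusted p = 0.000435). In Ltf and Mmp9 the replicates of each day differed widely, yet the days did not overlap. The collagenase Mmp8 (2.76), Ngp (1.28), Camp (0.84) and Lcn2 (1.13), which encode granule proteins, rose, while Orm1 (−1.42), an acute phase protein, and Cebpe, their regulator, fell. Slpi had −0.296, a call lost when any 1 of 6 libraries was left out. Olfm4 (0.19) and Hp (−0.03) did not pass.

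Mature neutrophil genes gave 18 of 23 up and 1 down, with a median of 1.20. Ccl6, a chemokine, read 16.1 and 21.99 CPM at day 2 and 171 and 196 CPM at day 4 (log2 fold change 3.25, SE 0.17, adjusted p = 1.21e-07), and Ifitm6 read 17.99 and 9.24 CPM at day 2 and 91.96 and 133 CPM at day 4 (log2 fold change 3.08, SE 0.26, adjusted p = 3.12e-06). S100a8 (1.197) and S100a9 (1.83), the calprotectin subunits, rose together, with S100a9 at 668 and 386 CPM at day 2 and 1494 and 2241 CPM at day 4. Ly6g (2.75), Retnlg (1.94) and Stfa2l1 (3.89) rose, and Trem1 (−0.12) and Mmp25 (1.09) did not pass. Wfdc21 fell (−0.52), which was not called without day 2 replicate 1 or day 4 replicate 1. The step exceeded the next one in 3 members and fell short of it in 4 (background 3.15%; 2 without day 4 replicate 1 and 7 without day 4 replicate 2), and the next step had the larger list median, 1.97.

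In these and the remaining lists, a count of 0 in a direction was checked without adjustment and with DESeq2. At an unadjusted p under 0.05 in edgeR, none of the lists on myeloid function with no falling member had one, and DESeq2 called none. The progenitor, S phase, muscle and ribosome biogenesis lists had no rising member by either measure. The exceptions at an unadjusted p under 0.05 were 1 rising gene of oxidative phosphorylation, 1 rising B cell marker, 1 falling dendritic cell marker and 2 rising mitochondrially encoded genes. DESeq2 called 1 dendritic cell marker and 1 mitochondrially encoded gene in those directions.

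The leading falling genes fell into 2 kinds. Myog, Umodl1, Mylpf, Serpinh1, Tpm2, Chl1, Cnmd, Igfbp7 and Igll1 were low in both day 4 libraries against both day 2 libraries. Rpph1, the RNA of ribonuclease P, read 82.8 and 1.08 CPM at day 2 and 0.726 and 0.975 CPM at day 4, and Rmrp, the RNA part of RNase MRP, read 70.6 and 1.53 CPM at day 2 and 0.454 and 1.17 CPM at day 4. Their fall therefore rests on day 2 replicate 1, and without it the log2 fold changes were −0.35 and −0.93, neither called. The same library held 223 CPM of the 7SK RNA gene Rn7sk, against 3.32 CPM in day 2 replicate 2.

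Of 7 genes tested in a list of 18 for skeletal muscle and cartilage matrix, 4 fell and none rose. Myog, the muscle transcription factor myogenin (gene 17928, chromosome 1, 134290004 to 134292548), read 18.7 and 30.2 CPM at day 2 and 0.635 and 0.7802 CPM at day 4 (log2 fold change −5.11, SE 0.34, adjusted p = 5.22e-07). Mylpf, a myosin light chain of fast muscle, read 15.8 and 24.6 CPM at day 2 and 1.36 and 1.56 CPM at day 4 (log2 fold change −3.796, SE 0.29, adjusted p = 1.55e-06). Tpm2, a tropomyosin, had −3.32 and Cnmd, a cartilage glycoprotein, −3.12. Tnnt3 (−1.73), Des (−0.29) and Tnnt1 (0.17) did not pass. In all 4 the step was more negative than the one before.

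Serpinh1, a collagen chaperone, read 63.5 and 56.9 CPM at day 2 and 4.36 and 4.29 CPM at day 4 (log2 fold change −3.79, SE 0.27, adjusted p = 8.29e-07). Its step before was 0.52, and the day 6 libraries read 0 and 0.216 CPM. Igfbp7, a secreted binding protein for growth factors, read 113 and 103 CPM at day 2 and 16.8 and 10.6 CPM at day 4 (log2 fold change −2.97, SE 0.17, adjusted p = 1.55e-07). The adhesion molecule Chl1 had −3.299. Umodl1 read 24.8 and 25.7 CPM at day 2 and 0.726 and 1.17 CPM at day 4 (log2 fold change −4.73, SE 0.37, adjusted p = 2.1e-06).

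Stem and progenitor genes gave no member up and 11 of 20 down, with a median of −0.52. Cdk6, a kinase of the G1 phase, read 118 and 126 CPM at day 2 and 52.4 and 47.4 CPM at day 4 (log2 fold change −1.29, SE 0.104, adjusted p = 2.39e-06). Myb, a transcription factor of progenitors, read 481 and 449 CPM at day 2 and 225 and 198 CPM at day 4 (log2 fold change −1.14, SE 0.09, adjusted p = 2.18e-06). Hlf (−1.102), Angpt1 (−0.95), Bcl11a (−0.52) and Bmi1 (−0.34) fell with them. Muc13 (−1.84), Sox4 (−1.29) and Adgrg1 (−0.98) also fell, each with a call lost without day 2 replicate 1 or day 4 replicate 2. Myc (−0.43), Cd34 (0.28), Runx1 (−0.16) and Erg (1.01) did not pass. Without day 2 replicate 1 the list gave 5 down, with a median of −0.52, and without day 4 replicate 2 it gave 7 down. Another 7 listed genes, among them Hoxa9 and Meis1, were not analysed here.

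Ribosome biogenesis genes fell by small amounts: none of 30 rose and 21 fell, with a median of −0.41, and the largest fall was −0.91. Without day 2 replicate 2 the list gave 9 down with a median of −0.34, without day 4 replicate 2 it gave 7 down with a median of −0.30, and tested against a 1.5-fold minimum it gave 0. Nop58, a box C/D RNA-protein core component, read 137 and 149 CPM at day 2 and 103 and 82.5 CPM at day 4 (log2 fold change −0.63, SE 0.11, adjusted p = 0.0012). Dkc1, the pseudouridine synthase dyskerin, read 117 and 126 CPM at day 2 and 83.97 and 64.6 CPM at day 4 (log2 fold change −0.71, SE 0.11, adjusted p = 0.000331). Gnl3 (−0.91), Wdr12 (−0.702) and the polymerase I subunit Polr1b (−0.68) led the list, and Fbl, the methylase fibrillarin, did not pass (0.11). The next step had a like list median, −0.52. Among aminoacyl-tRNA synthetases, which charge transfer RNA, 6 of 20 fell (15.9% over all genes), led by Eprs (−0.57), and Wars rose (0.48). The list gave 2 down without day 4 replicate 2, 3 without day 2 replicate 2 and 0 against a 1.5-fold minimum.

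Lists of cell division genes had medians between 0.01 and 0.23. Of 27 S phase genes none rose (21.7% over all genes) and 2 fell (15.9% over all genes). The median was 0.01, and the whole list lay between −0.31 and 0.18. The 2 were Dut (−0.31) and Chaf1a (−0.25), and both calls were lost without day 2 replicate 2 or day 4 replicate 2. Of 25 genes of G2 and M phase 9 rose (21.7% over all genes) and none fell (15.9% over all genes), with a median of 0.22. The count was 14 when either untreated library was left out, 4 when scaled by total counts and 1 against a 1.5-fold minimum. Kif23, a kinesin of cell separation, read 46.8 and 55.9 CPM at day 2 and 95.8 and 96.4 CPM at day 4 (log2 fold change 0.899, SE 0.102, adjusted p = 3.35e-05), and Foxm1, a factor that drives mitotic genes, had 0.55. Among 26 regulators of G1, 12 rose (21.7% over all genes) and 3 fell (15.9% over all genes). The antiproliferative Btg2 (1.71), Mxd1 (0.85), Rb1 (0.64) and Cdkn1b (0.51) rose, and so did Ccnd1 (1.06) and E2f2 (0.85), which promote the cycle. Cdk6, Cdk4 (−0.404) and Cdkn1c (−0.83) fell, the last not called without day 2 replicate 1 or day 4 replicate 1.

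Metabolic lists had medians between −0.07 and 0.18. Oxidative phosphorylation gave no member up and 2 of 22 down, Cyc1 (−0.54) and Sdhc (−0.23), with a median of −0.07. None of the 13 mitochondrially encoded genes passed, although 2 rose at an unadjusted p under 0.05 and DESeq2 called 1 of the 13. Glycolysis gave 6 up and 5 down of 21, beside 21.7% up and 15.9% down over all genes, so no shift of this list or of cholesterol synthesis is read from its count. The glucose transporter Slc2a6 read 13.8 and 26.7 CPM at day 2 and 87.3 and 91.96 CPM at day 4 (log2 fold change 2.11, SE 0.19, adjusted p = 5.91e-06), and Slc2a3 (1.32) and the hexokinase Hk2 (0.67) rose, while Gpi1 (−0.43), Tpi1 (−0.32), Pgam1 (−0.29), Pfkm (−0.32) and Ldha (−0.22) fell. Of those that fell, only Gpi1 kept its call when each library was left out in turn. Leaving out day 4 replicate 2 left 1 glycolysis gene down, leaving out day 2 replicate 2 left 2, and leaving out day 4 replicate 1 or scaling by total counts left 3. Cholesterol synthesis gave 6 up and 1 down of 21, with 2 up without day 4 replicate 1 and 3 up without day 2 replicate 2.

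In these p53-null cells, 6 of 22 genes known as p53 targets rose and 3 fell, with a median of 0.10, near the 21.7% and 15.9% of all genes. With either day 6 library left out, or in DESeq2, 3 rose. Pmaip1, which encodes the death protein Noxa, read 11.1 and 14.1 CPM at day 2 and 34.8 and 32.3 CPM at day 4 (log2 fold change 1.402, SE 0.13, adjusted p = 6.64e-06). Xpc, a DNA damage sensor, read 261 and 221 CPM at day 2 and 122 and 128 CPM at day 4 (log2 fold change −0.95, SE 0.09, adjusted p = 5.73e-06). Cdkn1a (0.11) and Mdm2 (0.12) did not pass. In the BCL2 family 9 of 14 rose (21.7% over all genes) and 2 fell. The falling count is near the 15.9% over all genes, and no downward shift is read from it. Members with opposite roles rose alike: the survival gene Mcl1 read 171.8 and 171.97 CPM at day 2 and 344 and 336 CPM at day 4 (log2 fold change 0.98, SE 0.09, adjusted p = 6.75e-06), and the death gene Bmf read 44.2 and 43.8 CPM at day 2 and 92.5 and 106 CPM at day 4 (log2 fold change 1.18, SE 0.12, adjusted p = 1.51e-05). Bcl2l11 (0.64) and Bbc3 (0.76) rose, Bcl2 (0.03) did not pass, and Bcl2l2 (−0.46) and Bik (−0.59) fell, both with calls that some libraries decided.

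Immediate early genes, which answer stimulation and also cell handling, gave 10 of 20 up and 2 down, with a median of 0.58. Over all genes 21.7% rose and 15.9% fell. Klf6 read 56.4 and 58.3 CPM at day 2 and 203 and 191 CPM at day 4 (log2 fold change 1.78, SE 0.07, adjusted p = 2.06e-08), Atf3 1.04 and 1.44 CPM at day 2 and 7.63 and 6.34 CPM at day 4 (log2 fold change 2.46, SE 0.33, adjusted p = 0.000115) and Nr4a1 2.88 and 7.09 CPM at day 2 and 24.96 and 30.5 CPM at day 4 (log2 fold change 2.42, SE 0.25, adjusted p = 1.71e-05). Egr1 and the phosphatase gene Dusp2 (−0.77) fell. In 8 of the 20 (5 without day 2 replicate 1) the step was above the one before it, in which the list median was −0.41. The part of cell handling was not tested.

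Primary granule genes, which mark immature myeloid cells, summed to 23437 and 22273 CPM at day 2 and 14262 and 13419.8 CPM at day 4, whereas the lists of other cell types summed to between 28.4 and 285 CPM in these libraries. The GFP and hairpin transcripts were not analysed here. B cell markers gave 6 of 14 down and none up. Their sum in day 2 replicate 1, 179 CPM, stood above 28.4 CPM in replicate 2 and 32.3 and 36.7 CPM at day 4, and without that library the list gave 1 down and 3 up. It gave 12 down without day 2 replicate 2, 1 down with either day 4 library left out, 2 down with either day 6 library left out and 11 down when scaled by total counts. The part of B cells in other results was not tested. Cd79b read 24.9 and 1.17 CPM at day 2 and 1.27 and 1.66 CPM at day 4 and Ebf1 9.11 and 0.539 CPM at day 2 and 0.635 and 0.683 CPM at day 4. In both the day 2 and day 4 libraries overlapped, and the calls rest on day 2 replicate 1, as does that of Il7r in the T and NK list (14.4 and 0.449 CPM at day 2 and 0.635 and 0.585 CPM at day 4). Igll1, a surrogate light chain gene, read 18.7 and 7.54 CPM at day 2 and 2.18 and 1.07 CPM at day 4 (log2 fold change −2.96, SE 0.47, adjusted p = 0.000436), and was low in both day 4 libraries.

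Of 18 T and NK markers 5 could be tested, of which 1 rose and 4 fell. The falling count was 2 without day 2 replicate 1 or day 4 replicate 2, 2 with only the day 2 and day 4 libraries, and 1 without day 4 replicate 1. The T cell receptor complex genes Cd3d, Cd3e and Cd3g were not analysed here. Nkg7 read 185 and 215 CPM at day 2 and 114 and 122 CPM at day 4 (log2 fold change −0.76, SE 0.103, adjusted p = 0.000139). Cd5 had 0 counts in both day 2 libraries and 22 at day 4, which is at least 6.83-fold higher when day 2 is set to 3 counts for the pair. Erythroid markers gave 2 of 8 down (15.9% over all genes), and summed to 158 and 139 CPM at day 2 and 93.2 and 73.0 CPM at day 4. The list median was −0.61, and 0.498 without day 2 replicate 1. Only 1 member reached an average log2 CPM of 3. Car2 fell (−1.67), with −2.28 to −0.746 over the alternatives. Tfrc, the transferrin receptor that dividing cells also carry, fell (−0.83), and the globin genes Hba-a1 (0.68) and Hbb-bs (−0.47) did not pass. Mast cell, basophil and eosinophil markers gave 3 up and 2 down of 13, near the shares over all genes (21.7% and 15.9%), and none rose in DESeq2 or without day 2 replicate 2. With day 4 replicate 2 or either day 6 library left out, when scaled by total counts or with only the day 2 and day 4 libraries, 1 rose. Mcpt8, a basophil protease, read 41.6 and 48.4 CPM at day 2 and 10.5 and 14.7 CPM at day 4 (log2 fold change −1.84, SE 0.18, adjusted p = 1.14e-05), and Hdc, the histamine-forming enzyme, 199 and 190.2 CPM at day 2 and 98.8 and 87.2 CPM at day 4 (log2 fold change −1.06, SE 0.09, adjusted p = 4.35e-06). Prg3 and Ear2 rose from few counts, with calls lost under 8 or more alternatives. Dendritic cell markers gave 2 of 8 up (Clec9a, 2.72, and Bst2, 0.62), near the 21.7% over all genes, and ran from −3.05 to 2.72. Megakaryocyte markers gave 1 up (Thbs1, 1.01) and 2 down (Vwf, −1.31, and Gp1bb, −0.71) of 5, beside 21.7% and 15.9% over all genes. Stroma and endothelium markers gave 2 down of 6 (15.9% over all genes), namely Kitl (−1.004) and Adipoq. Adipoq had 15 counts at day 2 and 1 at day 4, a ratio of 0.0621 (95% exact counting interval 0.00148 to 0.404). No shift of these small lists is read from their counts. Adipoq lost its call in DESeq2 and without day 2 replicate 2 or day 4 replicate 1, and Gp1bb without day 2 replicate 1 or day 4 replicate 1.

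Set beside the neighbouring 2-day steps, this one moved the most genes by a large amount. Genes called and changed by over 2-fold numbered 103 from untreated to day 2 (0.519% of genes tested higher and 0.316% lower), 1460 from day 2 to day 4 and 793 from day 4 to day 6 (3.45% higher and 2.98% lower). At any size, 6.13% of genes were called in the first step (4.18% higher and 1.95% lower) and 29.9% in the last (15.9% higher, with 1728 genes lower). The median absolute log2 fold change was 0.16, 0.28 and 0.25. Neighbouring steps share libraries, so the difference between steps was tested directly. The step was above the one before it in 1095 genes (8.88%) and below it in 660 (5.35%), and above the one after it in 1033 (8.38%) and below it in 388 (3.15%). Without day 2 replicate 1 the first pair of counts was 546 and 289, and without day 4 replicate 2 the negative count was 425. The second pair was 622 and 110 without day 4 replicate 1, 641 and 188 without day 6 replicate 2, and the positive count was 647 without day 4 replicate 2.

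Ranked by the difference from the earlier step, Clec4a3, Ptpro, Galnt9 and Siglec1 were among the 5 most positive. For Ptpro the difference was 6.63 (SE 0.64, adjusted p = 0.000126), from 0.681 and 1.26 CPM in untreated cells and 0.692 and 0.449 CPM at day 2 to 31.6 and 33.5 CPM at day 4. Rpph1, Rn7sk, Rmrp, Lars2 and Serpinh1 were the most negative. Without day 2 replicate 1 the first 3 of these lost their call between day 2 and day 4, and the log2 fold change of Lars2 was then 0.07. For Serpinh1 the difference was −4.31 (SE 0.39, adjusted p = 9.06e-05).

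Ranked by the difference from the later step, Upb1, Galnt9, Ptpro and Sh2d1b1 were among the 5 most positive. For Upb1 the difference was 5.78 (SE 0.35, adjusted p = 3.45e-06), with 43.9 and 47.5 CPM at day 4 and 77.7 and 69.7 CPM at day 6. The most negative were Igll1, Mylpf, Chst15, Actn1 and Adgrg1, genes that rose or levelled off after day 4. Actn1, a cytoskeletal crosslinker, read 24.1 and 20.1 CPM at day 2 and 15.4 and 22.5 CPM at day 4 and 87.04 and 115 CPM at day 6, a difference between steps of −2.63 (SE 0.38, adjusted p = 0.000945). Chst15, a sulfotransferase, read 12.3 and 14.8 CPM at day 2 and 4.81 and 9.85 CPM at day 4 and 35.1 and 41.8 CPM at day 6, a difference of −3.31 (SE 0.45, adjusted p = 0.000597).

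**Figure D3:**
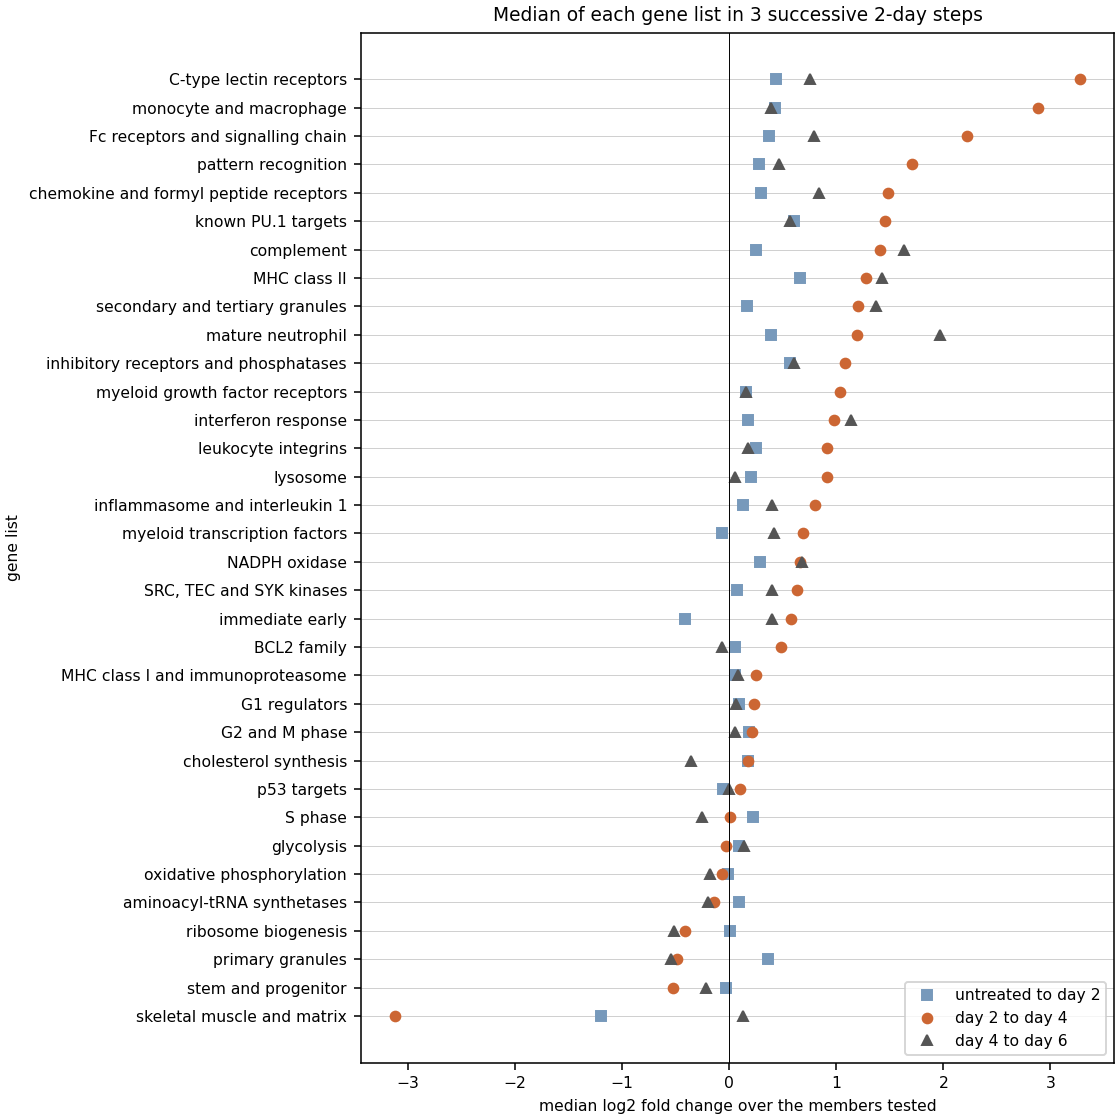
Median log2 fold change over the tested members of each gene list (x axis) in 3 successive 2-day steps: untreated to day 2 (blue squares), day 2 to day 4 (orange circles) and day 4 to day 6 (grey triangles). Monocyte and macrophage genes have medians of 0.43, 2.89 and 0.40, whereas mature neutrophil genes have 0.39, 1.20 and 1.97.

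The interval was also set against the whole course, day 6 against untreated. The comparisons share no library, but they come from the same fit and share its error estimates and scaling. In the whole course 63.6% of genes tested were called. The higher genes were 32.0% of all tested and the lower 31.6%, and those higher by over 2-fold were 13.7%. Of 3942 genes higher at day 6 than in untreated cells, 63.3% were called higher between day 2 and day 4 (background 21.7%) and 0.710% lower. The median gene of this set made 55.2% of its log2 change in the interval, with an interquartile range of 34.3 to 73.5%. Of 3897 genes lower at day 6, 44.2% were called lower in the interval (background 15.9%), and the median share of the log2 change was 43.9%. Among those changed by over 2-fold, 81.6% of 1689 rising genes and 64.1% of 1481 falling genes were called in the interval, with median shares of 58.4% and 45.05%. From day 4 to day 6 the median shares were 26.6% for these rising genes and 43.2% for these falling genes. Scaled by total counts, the share of falling genes called in the interval was 27.0%, and it was 26.9% without day 4 replicate 2.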

How the data were processed

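Per the file headers, each deposited table holds a whole-number read count and a gene length per Entrez gene ID, with no normalisation. Gene length, the other deposited column, was not used. Per the labels' protocols, sorted cell pellets gave RNA by a column kit and libraries by standard Illumina methods. Genome build mm10 and the tools featureCounts, CASAVA 1.8.2, limma 3.22.0 and edgeR 3.8.2 stand in the submitters' processing notes. The aligner is not given in the sources used here. Nor is strandedness, so sense and antisense reads of overlapping genes may be mixed. In each of the 12830 genes the third highest of 8 unscaled CPM values is at least 0.501, and whether the authors filtered low genes is not stated in the labels.

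Symbols and coordinates came from RefSeq (GRCm38.p6), which matched 12555 gene IDs. The rest held 2.24% of counts. In R 4.3.3, filterByExpr removed 500 genes holding 0.0267% of counts. All 8 libraries entered an edgeR 4.0.16 quasi-likelihood fit of group means with TMM scaling and no covariate (biological coefficient of variation 8.34%, 4 residual and 7.08 prior degrees of freedom), with Benjamini-Hochberg adjustment over 12330 genes. Contrasts were day 4 minus day 2, each neighbouring step, day 6 minus untreated, and the differences between steps. Standard errors are the absolute log2 fold change over the square root of F. The fit was also run on simulated counts with the same dispersion for every gene, and the outcome is not reported here. Named genes were Spi1, the 12 leading genes in each direction (average log2 CPM of at least 3, groups not overlapping, no predicted genes), up to 4 called members per list with any that went against it, 5 per sign of each step difference, and genes that dominated a library. Others were named after their values were seen. Some genes that the rule chose are not reported here. The members, the 43 gene lists (714 genes, 630 tested) and the rule were chosen with earlier results of these data known. Between replicates, counts set against raw library totals varied more than sampling noise gives (median chi-square 5.14 at day 2 and 1.12 at day 4, against 0.455). TMM was not applied there, and its factors were 0.9365 and 1.116 for the day 2 libraries. Scaling differences thus enter the day 2 value, which does not measure replicate spread alone. No pair was treated as copies. Counting intervals and floors (3 counts) cover counting error only. Alternatives were RLE size factors, total counts, no filter, a higher filter, DESeq2 1.42.0, a test against a 1.5-fold minimum (glmTreat), a replicate block, only the day 2 and day 4 libraries, and leaving out each library.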

Additional observations from a re-analysis of the deposited data

How the results depend on the processing

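Day 4 against day 2 gave 2681 genes higher and 1959 lower. RLE size factors gave 2619 and 2093, no filter 2683 and 1963, and DESeq2 2194 and 1383. The test against a minimum change of 1.5-fold gave 967 and 467, with step differences of 348 positive and 145 negative (earlier step) and 420 and 87 (later step), and 26.4% of falling genes called in the interval. Scaled by total counts, 368 genes had a negative difference from the earlier step, and 27.0% of falling genes were called. The 1.5-fold test calls fewer genes by its construction. For total counts the cause was not tested. Of all calls, 57.8% were upward, 49.3% under total counts and 67.4% in the 1.5-fold test.

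Leaving out 1 library at a time gave 2042 to 2889 genes higher and 1173 to 2151 lower. Differences from the earlier step ranged from 546 to 1247 positive and 289 to 769 negative, those from the later step from 622 to 1215 positive and 110 to 500 negative, and the shares called in the interval from 49.5 to 68.9% of rising and 26.9 to 52.0% of falling genes. Across these fits the log2 fold change of Lars2 ran from −2.96 to 0.0686, of Cd79b from −4.08 to 0.311, of Ebf1 from −3.77 to 0.276 and of Il7r from −4.53 to 0.427, each positive without day 2 replicate 1. Actn1, not called, ran from −0.518 to 0.0368, positive without day 4 replicate 1.

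Deviations of same-numbered libraries correlated at −0.0732 between day 2 and day 4, at 0.209 between untreated and day 2, and at −0.13 to 0.0616 in the other 4 pairs of groups, so that the numbers were not taken to pair the samples. With a replicate block 2619 genes were higher and 1882 lower. Of 187 named genes, 109 kept their direction and their call between day 2 and day 4 in all alternatives that tested them. With 2 libraries per group, a call rests much on error borrowed from other genes.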
